A study of Homo sapiens with 4 samples.

Results

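The genes described here encode the enzymes that build cholesterol and fatty acids, together with the factors that control them. They are the 30 rows of the deposited expression table whose gene symbols are on a fixed list of that pathway, and all 30 symbols were found among the 23143 in the table. Each was above 1 FPKM on average over the libraries (fragments per kilobase of transcript, scaled to the mapped fragments of the library), which made all 30 part of the 12504 genes tested. Polyadenylated RNA came from A549, a human lung adenocarcinoma line, in a form called A549i and treated with doxycycline or vehicle. GATA4, whose level the labels set by that treatment, is a zinc finger transcription factor. The 2 noDOX libraries are labelled as having GATA4 at its normal level, and the design text names a vehicle for them. The 2 DOX libraries are labelled as overexpressing GATA4. The sources used here give neither the time and dose of doxycycline nor the promoter of the inducible gene, nor whether the cells were 1 clone. No library of cells with doxycycline but without the inducible gene was analysed here, so an effect of the drug and of GATA4 cannot be told apart.

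Animal cells make cholesterol from acetyl-CoA through mevalonate, isoprenoid diphosphates, squalene and lanosterol, and they make fatty acids from the same acetyl-CoA by carboxylation and repeated elongation. Both branches are under transcription factors called SREBPs, which are held in the endoplasmic reticulum by INSIG proteins when sterols are plentiful and are cut and sent to the nucleus when sterols are scarce. SREBP2, from SREBF2, acts mainly on the sterol genes and SREBP1, from SREBF1, mainly on the fatty acid genes. Tumour cells often run both branches at a high rate to supply membranes.

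GATA4 itself was at 12.2 and 14.5 FPKM without and at 75.0 and 48.0 FPKM with doxycycline, the order that the labels give. Epithelial keratin genes marked all libraries, with KRT8 at 2339 to 5245 FPKM, while the leukocyte gene CD3E was listed at 0 in all 4 and PTPRC was at 0 to 0.00516 FPKM. The 5 endothelial markers summed to 0.116 to 0.192 FPKM and the 7 fibroblast markers, with DCN listed at 0, to 2.28 to 9.87 FPKM. The 7 leukocyte markers summed to 12.4 to 34.4 FPKM, nearly all from CD68, CD14 and LYZ, and the 4 erythroid markers to 0.231 to 0.789 FPKM. Among the 8 epithelial markers, which summed to 5026 to 9639 FPKM, 7 were tested, 5 of them with higher DOX means and a median difference of 0.39 on the log2 scale. Of the 7 tested, the DOX values were both under the noDOX values in 2, EPCAM and KRT7, and both over them in 1, CLDN4. Over all tested genes those shares were 17.3% and 14.7%. The untested CLDN7 also had both DOX values under both noDOX values. CLDN4, a tight junction gene, was at 6.66 and 7.58 FPKM without and at 9.50 and 16.4 FPKM with doxycycline. EPCAM, a surface adhesion protein, was at 8.27 and 13.7 FPKM without and at 3.83 and 3.08 FPKM with doxycycline, KRT7 at 1944 and 1476 against 197 and 1360 FPKM, and CLDN7 was at 0.206 to 0.875 FPKM. CD68 was lower too, at 21.8 and 20.7 against 6.69 and 16.9 FPKM, as was the fibroblast marker COL1A1, at 3.76 and 8.46 against 1.76 and 2.88 FPKM. The part of these differences in the results below was not tested. The read depth behind the values is unknown. The replicates of a group differed from each other in the same way in both groups, with noDOX library 1 resembling DOX library 2 and noDOX library 2 resembling DOX library 1. This is set out below because it touches many of the sterol genes.

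The genes with higher values under doxycycline were spread over both branches. In 24 of 30 the mean log2 value was higher in the DOX libraries, against 43.9% of all tested genes. With the libraries scaled to the same upper quartile the count was 27 of 30 against 50.4% of tested genes. It was 17 of 30 without noDOX library 2 (44.0% of tested genes), 21 without DOX library 2 (43.6%), 26 without DOX library 1 (49.1%) and 29 without noDOX library 1 (51.6%). The median difference was 0.25 on the log2(FPKM + 1) scale, where the median of all tested genes was -0.04. In 11 of 30 both DOX libraries lay above both noDOX libraries, where the share of all tested genes was 14.7%. These 11 were HMGCS1, SQLE, LSS, CYP51A1, SREBF2, INSIG1, ACLY, ACACA, FASN, SCD and ELOVL6. The reverse, with both DOX values the lower ones, was found in 0 of 30, against 17.3% of all tested genes. None of the 30 passed the test over all genes (limma, 0 at an adjusted p under 0.05, where 0.0240% of tested genes passed as higher and 0.0640% as lower). At an unadjusted p under 0.05 there were 5 of 30, namely SCD, LSS, HMGCS1, ELOVL6 and CYP51A1, all higher, against 6.34% of tested genes in either direction. That count was 0 without noDOX library 2, 0 without DOX library 2 and 1 without DOX library 1. The smallest adjusted p among the 30 was 0.640, for SCD. GATA4 itself did not pass either, with a log2 difference of 2.09 (SE 0.30; limma, adjusted p = 0.289). With 2 libraries against 2 an exact permutation test of a single gene cannot go below p = 0.33.

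**Figure D1:**
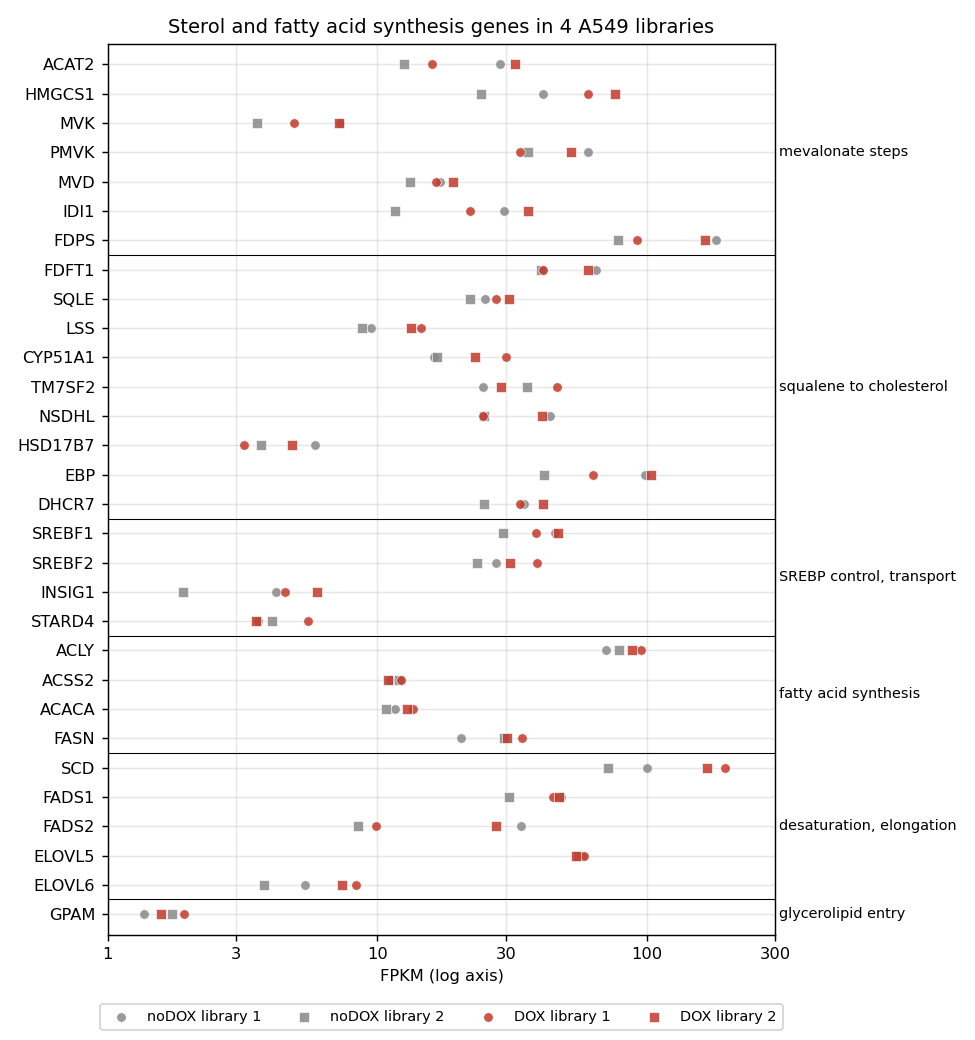
FPKM of each of the 30 genes (log axis) in the 4 libraries, in the order of the pathway; grey marks are noDOX and red marks DOX, circles library 1 and squares library 2. The red marks of SCD, HMGCS1, LSS, CYP51A1 and ELOVL6 lie to the right of both grey marks, whereas in FDPS, FADS2, NSDHL and PMVK noDOX library 1 lies with DOX library 2.

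Promoters were examined because the sterol genes are known for a shared layout, a sterol regulatory element bound by SREBP beside a CCAAT box bound by NF-Y. RefSeq promoter windows were matched for 26 of the 30 genes, and those of ACAT2, FDFT1, SQLE and FASN were not matched. In the 250 bases before the first listed start, the letters CCAAT were found on either strand in 17 of 26 (65.4%), against 33.0% of 27305 promoters of all genes, noncoding ones included. The element TCACNCCAC, with N for any base, was found in 1 of 26, SREBF2, against 0.875% of all promoters. A GATA motif, meaning AGATAA as well as AGATAG, and likewise TGATAA as well as TGATAG, was found in 7 of 26 (26.9%), against 22.9% of all promoters. Those 7 were CYP51A1, EBP, ELOVL5, FDPS, GPAM, HSD17B7 and SREBF1. Of the 9 genes with a window and both DOX libraries above both noDOX libraries, 1 held such a match, CYP51A1. All motifs were searched on both strands, and the only overlapping matches in these 26 were CCAAT matches of opposite strands in NSDHL. These are matches of letters, and binding was not measured.

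Among all 26 genes with a promoter window 17 held a CCAAT match (65.4%). Of the 11 genes with separated libraries 9 had a window, and 6 of these held one. Those 6 stretches are printed here from RefSeq on GRCh38.p14, 5′ to 3′ along the gene, with 12 bases on each side of the outermost match. Capitals mark CCAAT or its reverse complement and, in SREBF2, also the sterol regulatory element.
SREBF2 (chr22:41832960-41833015, plus strand): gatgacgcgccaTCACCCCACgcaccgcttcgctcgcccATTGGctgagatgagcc
HMGCS1 (chr5:43313496-43313579, minus strand): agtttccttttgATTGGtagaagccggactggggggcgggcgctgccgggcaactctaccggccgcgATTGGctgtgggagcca
LSS (chr21:46228908-46228936, minus strand): cgcggcgctctgATTGGttgcgtgggcgt
INSIG1 (chr7:155297696-155297724, plus strand): cgccggcctcccATTGGttgcggccgcct
ACLY (chr17:41919029-41919099, minus strand): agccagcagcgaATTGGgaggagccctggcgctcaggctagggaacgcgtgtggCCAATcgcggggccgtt
SCD (chr10:100346992-100347063, plus strand): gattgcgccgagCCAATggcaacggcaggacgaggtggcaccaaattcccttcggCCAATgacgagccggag

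In SREBF2 the element stood at positions -133 to -125 from the start, with a reversed CCAAT at -106 to -102. HMGCS1, ACLY and SCD each held 2 CCAAT matches, and LSS and INSIG1 held 1 each.

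Among the enzymes that make mevalonate and turn it into isoprenoid diphosphates, HMGCS1 stood apart. HMGCS1 makes HMG-CoA, the precursor of mevalonate. It was at 41.4 and 24.3 FPKM without and at 60.4 and 76.2 FPKM with doxycycline. The lowest DOX value was thus 1.46 times the highest noDOX value, and the groups did not overlap. Group means of 32.9 ± 12.1 and 68.3 ± 11.1 FPKM (SD, n = 2 each) stood at a ratio of 2.08, with a log2 difference of 1.07 (SE 0.35; limma, adjusted p = 0.693).

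IDI1, which isomerises isopentenyl diphosphate, was at 29.5 and 11.6 FPKM without and at 22.0 and 36.2 FPKM with doxycycline. Its groups overlapped, and the 2.54-fold gap between its noDOX libraries was larger than the 1.41-fold ratio of the group means. Its log2 difference was 0.58 (SE 0.52). FDPS, which joins the units into farnesyl diphosphate, was at 181 and 78.3 FPKM without and at 92.2 and 165 FPKM with doxycycline, and the group means of 130 and 128 FPKM were nearly level. The thiolase gene ACAT2 was at 28.7 and 12.6 FPKM without and at 15.9 and 32.4 FPKM with doxycycline. The high values of FDPS and ACAT2 were in noDOX library 1 and DOX library 2. MVK and PMVK, the kinases of mevalonate and phosphomevalonate, had the same high libraries. MVK was at 5.44 ± 2.63 and 6.04 ± 1.62 FPKM, PMVK at 48.3 ± 17.0 and 43.1 ± 13.0 FPKM, and MVD, the decarboxylase, at 15.2 ± 2.7 and 17.8 ± 1.9 FPKM (SD, n = 2 each). In all 7 genes of this stretch noDOX library 1 was above noDOX library 2 and DOX library 2 above DOX library 1. Over all tested genes these shares were 51.2% and 51.6%.

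Between squalene and cholesterol, the genes with separated libraries were SQLE, LSS and CYP51A1, which encode the epoxidase, the cyclase and the lanosterol demethylase and act one after the other. SQLE was at 25.0 and 22.1 FPKM without and at 27.7 and 30.8 FPKM with doxycycline, a log2 difference of 0.30 (SE 0.21). LSS was at 9.45 and 8.79 FPKM without and at 14.5 and 13.3 FPKM with doxycycline. The LSS replicates lay close together in both groups, and the log2 difference was 0.56 (SE 0.18; limma, adjusted p = 0.690). CYP51A1 was almost level without doxycycline, at 16.3 and 16.6 FPKM, and at 30.02 and 23.1 FPKM with it, a log2 difference of 0.65 (SE 0.22; limma, adjusted p = 0.747). All 3 differences were larger than the gap between replicates within either group.

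The other genes of that stretch did not separate the groups. FDFT1, the squalene synthase, was at 65.0 and 40.5 FPKM without and at 41.3 and 60.8 FPKM with doxycycline. EBP, a sterol isomerase, was at 98.4 and 41.5 against 63.1 and 104 FPKM, and NSDHL, which helps remove methyl groups from the sterol ring, at 43.7 and 24.9 against 24.6 and 41.0 FPKM. In these 3 genes noDOX library 1 and DOX library 2 were the high libraries. DHCR7, the last reductase, was at 29.9 ± 7.2 and 37.5 ± 5.3 FPKM, and HSD17B7, a sterol ketone reductase, at 4.79 ± 1.55 and 4.03 ± 1.16 FPKM (SD, n = 2 each). TM7SF2, a sterol reductase, had the reverse order of libraries, at 24.7 and 36.1 FPKM without and at 46.4 and 28.8 FPKM with doxycycline.

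Of the regulators, SREBF2 was at 27.7 and 23.5 FPKM without and at 39.2 and 31.1 FPKM with doxycycline. The groups did not overlap, and the log2 difference was 0.44 (SE 0.24; limma, adjusted p = 0.963). INSIG1, the retention factor that is itself an SREBP target, was at 4.21 and 1.90 FPKM without and at 4.55 and 5.99 FPKM with doxycycline. Its groups were separated by a small margin, the lowest DOX value being 1.08 times the highest noDOX value, and the log2 difference was 0.68 (SE 0.35; limma, adjusted p = 0.937). SREBF1 was at 45.6 and 29.2 FPKM without and at 39.0 and 46.8 FPKM with doxycycline, with overlapping groups and a log2 difference of 0.22 (SE 0.31). The difference between SREBF1 and SREBF2 in this respect was not tested. STARD4, a cytosolic sterol carrier, was at 3.85 ± 0.33 and 4.53 ± 1.39 FPKM (SD, n = 2 each). The microRNA genes that lie inside SREBF1 and SREBF2 gave no usable level. MIR33B was listed at 0 in both first libraries and at 33.9 and 83.3 FPKM in noDOX and DOX library 2, MIR33A was listed at 0 in all 4, and FPKM of such short genes are unreliable.

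The 4 genes that bring acetyl-CoA into fatty acids had median gaps between replicates of 0.12 on the log2 scale in the noDOX and 0.13 in the DOX libraries, with FASN apart at -0.51 for noDOX library 1 minus noDOX library 2. ACLY, which splits citrate into acetyl-CoA, was at 70.9 and 78.7 FPKM without and at 95.1 and 87.9 FPKM with doxycycline. ACACA, the acetyl-CoA carboxylase that makes malonyl-CoA, was at 11.6 and 10.8 against 13.5 and 12.9 FPKM. FASN, the fatty acid synthase, was at 20.4 and 29.5 against 34.4 and 30.3 FPKM. The groups of all 3 were separated, FASN by the least, since DOX library 2 was 1.03 times noDOX library 2. Their log2 differences were 0.29 (SE 0.25), 0.22 (SE 0.18) and 0.38 (SE 0.27), and the limma adjusted p of each was between 0.990 and 0.999. ACSS2, which makes acetyl-CoA from acetate, was level at 11.6 ± 0.6 and 11.6 ± 0.9 FPKM (SD, n = 2 each).

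SCD, the desaturase that makes oleate from stearate, had the largest log2 difference of the 30 genes. It was at 99.8 and 72.1 FPKM without and at 194 and 167 FPKM with doxycycline. The lowest DOX value was 1.67 times the highest noDOX value. The group means of 86.0 ± 19.6 and 181 ± 19 FPKM (SD, n = 2 each) stood at a ratio of 2.10, with a log2 difference of 1.08 (SE 0.31; limma, adjusted p = 0.640). That difference ranks 238 among the 12504 tested genes from the highest down, and that of HMGCS1 ranks 240. ELOVL6, which extends palmitate to stearate and so acts just before SCD, was at 5.40 and 3.80 FPKM without and at 8.35 and 7.38 FPKM with doxycycline. Its groups did not overlap, with a log2 difference of 0.68 (SE 0.22; limma, adjusted p = 0.695).

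The enzymes of polyunsaturated fatty acids showed no such separation. FADS2, the first desaturase of that route, had the widest gaps between replicates among the 30 genes, at 34.1 and 8.46 FPKM without and at 9.91 and 27.6 FPKM with doxycycline. noDOX library 1 was 4.03 times noDOX library 2, and DOX library 2 was 2.79 times DOX library 1. FADS1, its neighbour in the genome and the later desaturase, was at 48.0 and 31.0 against 44.9 and 47.3 FPKM. FADS2 shares exon bases with FEN1 on the same strand, which was at 43.6 and 31.4 FPKM without and at 27.7 and 44.7 FPKM with doxycycline and thus had the same high libraries. ELOVL5, the elongase of the route, was level in all libraries, at 57.5 and 55.6 against 58.6 and 54.5 FPKM. GPAM, which starts glycerolipid synthesis, was the lowest of the 30 genes, at 1.54 ± 0.26 and 1.75 ± 0.23 FPKM (SD, n = 2 each).

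**Figure D2:**
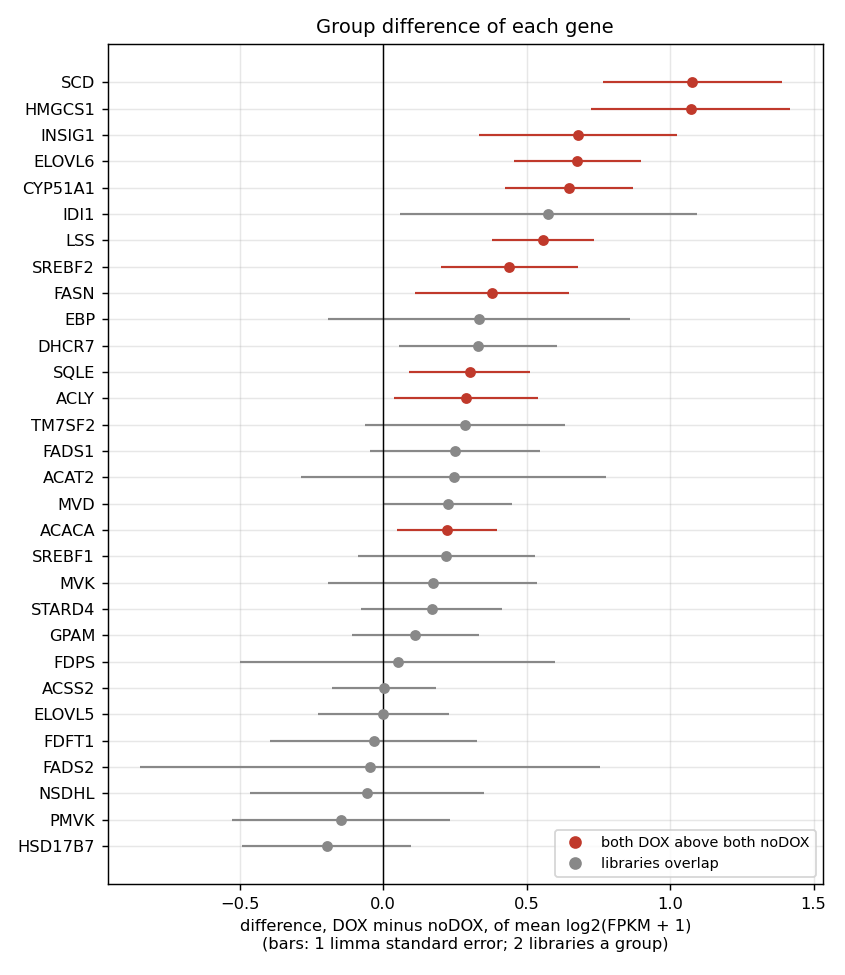
Difference between the group means of log2(FPKM + 1), DOX minus noDOX, for each of the 30 genes, with bars of 1 limma standard error; red marks genes in which both DOX libraries lie above both noDOX libraries. SCD (1.08) and HMGCS1 (1.07) are the farthest to the right, and HSD17B7 (-0.20) and PMVK (-0.15) the farthest to the left.

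Compared with the spread between replicates, 9 of the 30 genes had a DOX mean higher than the noDOX mean by more than both gaps within the groups, against 10.5% of all tested genes. These 9 were HMGCS1, SQLE, LSS, CYP51A1, SREBF2, ACLY, ACACA, SCD and ELOVL6. For the typical gene of the 30 the opposite held. The median size of the group difference was 0.25 on the log2 scale, while the median gap was 0.52 between the noDOX libraries and 0.33 between the DOX libraries. Over all tested genes those medians were 0.20, 0.36 and 0.31. The wide noDOX gap was mainly on the sterol side, with a median of 0.69 in the 16 sterol enzyme genes and 0.42 in the 9 fatty acid genes.

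The summed level of the 30 genes was 1130 and 761 FPKM without and 1092 and 1271 FPKM with doxycycline, so the groups overlapped. The sum of the 16 sterol enzyme genes overlapped too, at 688 and 399 against 531 and 736 FPKM. The sum of the 9 fatty acid genes did not, at 359 and 302 against 471 and 446 FPKM, and SCD alone was 8.83 and 9.47% of the whole sum without and 17.8 and 13.1% with doxycycline. Without SCD and HMGCS1 the sums were 989 and 665 against 837 and 1028 FPKM. As a share of all FPKM outside small RNA genes, the 30 genes held 0.125 and 0.132% in the noDOX and 0.192 and 0.168% in the DOX libraries. On that scale the groups did not overlap. The same held for the 16 sterol enzyme genes, at 0.0765 and 0.0694% without and at 0.0934 and 0.0974% with doxycycline. The 9 fatty acid genes held 0.0399 and 0.0525% without and 0.0830 and 0.0590% with it. Whether the sterol groups overlapped thus depended on the scale. That denominator itself ran from 568294 FPKM in DOX library 1 to 900263 FPKM in noDOX library 1. Such sums are of RNA in a bulk sample, where fewer cells making a transcript and less of it per cell cannot be told apart.

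Values between replicates moved with transcript length. Over the tested genes outside the small RNA classes with a matched length, those with a longest coding transcript of up to 2000 bases had a median of 0.50 for noDOX library 1 minus noDOX library 2 and of 0.40 for DOX library 2 minus DOX library 1, on the log2 scale. In genes over 4000 bases those medians were -0.23 and -0.19. The 7 short genes among the 30 (up to 2000 bases: PMVK, MVD, FDPS, TM7SF2, NSDHL, HSD17B7 and EBP) had medians of 0.72 and 0.61. The 11 long ones (over 4000 bases) had medians of 0.09 and -0.16. In 6 of the 7 short genes noDOX library 1 was above noDOX library 2, TM7SF2 being the exception. Spearman's rho between length and these gaps was -0.39 and -0.53 across the 30 genes and -0.49 and -0.49 across 10738 tested genes. Genes of 1 library share its fragment sizes and RNA quality, so these values are descriptions.

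**Figure D3:**
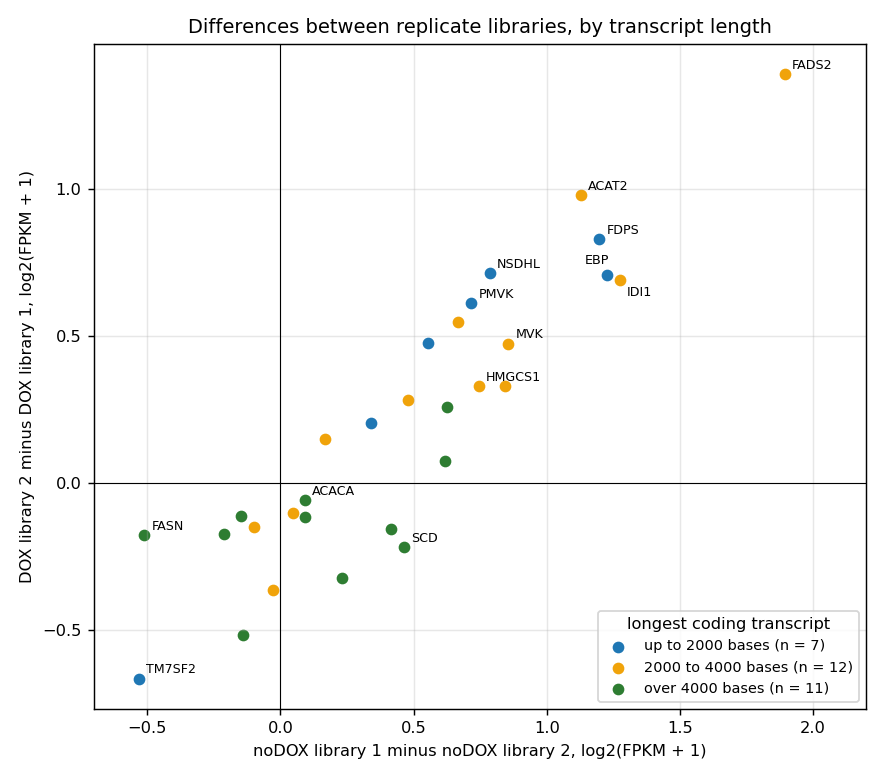
Each point is 1 of the 30 genes, with the gap between the noDOX libraries (library 1 minus 2) on the horizontal and between the DOX libraries (library 2 minus 1) on the vertical axis, both in log2(FPKM + 1), coloured by transcript length. Most points lie on a rising diagonal, with FADS2 at the upper and TM7SF2 at the lower end, and 2 of the 11 genes over 4000 bases (green) lie above 0 on the vertical axis.

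The group comparison also moved with length. Both DOX libraries lay above both noDOX libraries in 6.11% of tested genes up to 2000 bases, 15.6% of those from 2000 to 4000 bases and 20.5% of longer ones. Among the 30 genes the counts were 0 of 7, 4 of 12 and 7 of 11. HMGCS1, SQLE, CYP51A1 and INSIG1 were in the middle class, and LSS, SREBF2, ACLY, ACACA, FASN, SCD and ELOVL6 in the long class. The median group difference of the 30 genes was 0.05, 0.27 and 0.29 in the 3 classes, where that of all tested genes was -0.16, -0.05 and 0.05. The part of length in the counts was not tested beyond these classes, which were set after values had been seen.

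**Figure D4:**
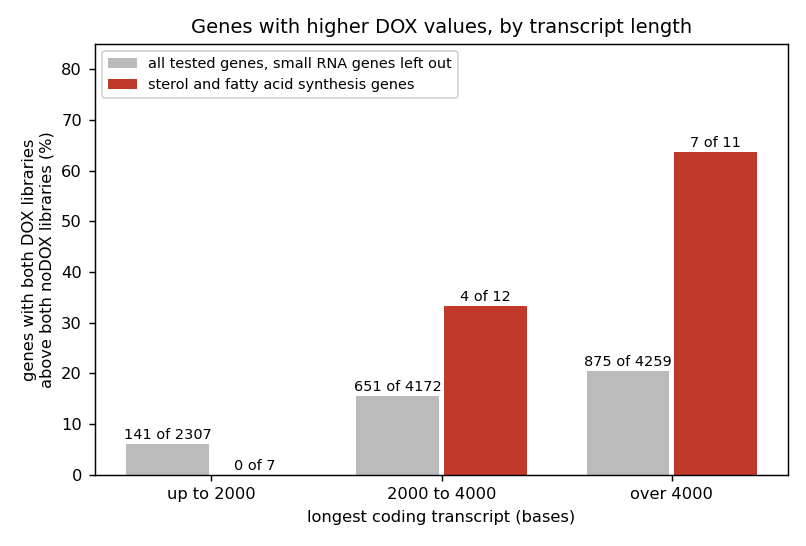
Share of genes (%) with both DOX libraries above both noDOX libraries in 3 classes of transcript length, for all tested genes with small RNA genes left out (grey) and for the 30 sterol and fatty acid synthesis genes (red), with counts over the bars. The red bars stand at 0, 33.3 and 63.6% and the grey bars at 6.11, 15.6 and 20.5%.

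Single libraries decided the size of the sterol differences. Without noDOX library 2 the median over the 30 genes was 0.07 and that of the 16 sterol enzyme genes was -0.16, and without noDOX library 1 they were 0.54 and 0.59. Without DOX library 2 the sterol median was 0.05. The 9 fatty acid genes ran from 0.18 to 0.29 in the fits that left out 1 library each. HMGCS1 ran from 0.70 to 1.44 and SCD from 0.85 to 1.31, LSS from 0.50 to 0.61 and CYP51A1 from 0.46 to 0.83. INSIG1 was at 0.26 without noDOX library 2 and at 1.10 without noDOX library 1, and FASN at 0.12 without noDOX library 1 and at 0.63 without noDOX library 2. SREBF1 had values of both signs, from -0.09 to 0.53. The count of 11 separated genes was 22 without noDOX library 1 and 17 without DOX library 1, where 31.0 and 23.5% of all tested genes were separated in that direction.

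Sterol genes outside the 30 were compared from lists of related steps. Of 8 other enzymes of the pathway 7 had higher mean log2 values and 5 had both DOX libraries above both noDOX libraries, against 43.9% and 14.7% of all tested genes. IDI2, a second isomerase gene, was separated the other way, at 1.44 and 1.91 FPKM without and 1.31 and 1.36 FPKM with doxycycline. The median of the 8 was 0.28, and 0 passed (limma; 2 at an unadjusted p under 0.05). SC4MOL, the methyl sterol oxidase now called MSMO1, was at 8.67 and 8.90 FPKM without and at 18.6 and 13.3 FPKM with doxycycline. The sterol desaturase SC5DL was at 2.65 ± 0.21 and 3.58 ± 0.44 FPKM (SD, n = 2 each).

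Genes of sterol uptake and transport went both ways, with 7 of 12 tested higher and 5 lower and 0 passing (limma; 3 at an unadjusted p under 0.05). The highest was TMEM97, a membrane protein of sterol handling, at 66.9 and 86.6 FPKM without and at 369 and 268 FPKM with doxycycline. With a log2 difference of 2.03 (SE 0.34; limma, adjusted p = 0.388) it stood above every one of the 30 genes. OSBP, an oxysterol-binding carrier, was at 17.1 and 19.8 against 40.9 and 31.4 FPKM. SCARB1, which takes up cholesterol from high-density lipoprotein, had lower DOX values, at 40.3 and 54.1 against 26.7 and 29.5 FPKM. These 3 had separated groups, as had others of the list. Both DOX libraries lay above both noDOX libraries in 6 of the 12 and below them in 4, against 14.7% and 17.3% of all tested genes.

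The 14 genes that process or assist SREBPs had a median of 0.09, with 10 higher and 4 lower and 0 passing (limma; 1 at an unadjusted p under 0.05, the NF-Y subunit gene NFYA at 5.48 ± 0.51 and 7.97 ± 0.49 FPKM; SD, n = 2 each). INSIG2, the second retention factor, was at 8.92 ± 0.72 and 7.62 ± 0.86 FPKM. LXR genes and their targets, which lead sterol out of cells, had 6 of 8 tested at lower means and a median of -0.36, and 0 passed (limma; 2 at an unadjusted p under 0.05).

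Fatty acid genes outside the 30 had no common direction. Of 21 other synthesis genes 9 were higher and 12 lower with a median of -0.02, of 14 glycerolipid genes 6 and 8 with a median of -0.03, and of 22 oxidation genes 15 and 7 with a median of 0.08. None passed (limma, 0 of each list; 2, 0 and 0 at an unadjusted p under 0.05). PTPLB, a dehydratase of the elongation cycle now called HACD2, was at 16.6 and 18.8 FPKM without and at 59.6 and 31.9 FPKM with doxycycline. ME1, which supplies NADPH, was at 28.1 ± 6.6 and 42.7 ± 1.4 FPKM, and ELOVL3, an elongase of saturated chains, at 1.92 ± 0.45 and 0.582 ± 0.126 FPKM (SD, n = 2 each). SLC25A20, the mitochondrial carnitine carrier and the oxidation gene with the smallest p, was at 5.98 ± 0.60 and 7.94 ± 0.92 FPKM (SD, n = 2 each). PLIN3, a lipid droplet coat protein, was at 33.9 and 39.4 against 18.9 and 27.8 FPKM.

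Levels among the 30 genes spanned the range of the tested genes outside the small RNA classes. FPKM is scaled by length, but values here still moved with transcript length between libraries, so levels of different genes compare only roughly. SCD and FDPS were at the 94.2 and 94.1 percentiles of mean FPKM, ACLY and EBP at the 90.8 and 90.2 percentiles, and GPAM at the 7.34 percentile. The highest mean differed by group, FDPS being higher in the noDOX means (130 against 86.0 FPKM) and SCD in the DOX means (181 against 128 FPKM). Some values are uncertain because reads can be shared. On the GENCODE annotation ACAT2 shares exon bases with TCP1 and SOD2, MVK with MMAB, TM7SF2 with VPS51, SREBF1 with RAI1 and FADS1 with FADS2. CYP51A1 shares exon bases with 2 unnamed coding genes on its own strand. ACAT2, HMGCS1, IDI1, FDPS, FDFT1, LSS, CYP51A1, SREBF2, STARD4 and ACLY share them with noncoding RNA genes of the other strand, whose reads cannot be told apart without knowledge of the strand. FDPS has 8 pseudogenes named after it, CYP51A1 has 3, HSD17B7 has 2, and SCD and FADS2 have 1 each.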

How the data were processed

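The authors deposited 1 table of FPKM for 23143 gene symbols with a column for each of the 4 libraries. Per the submitters' processing notes, TopHat2 2.0.10, Bowtie, Cufflinks 2.2.1 and Cuffdiff were used on hg19. The annotation, the strand setting and any scaling between libraries: not given in the sources used here. FPKM sums ran from 975728 to 1381820, small RNA genes (recognised by symbol, such as MIR and SNOR genes) held 34.8 to 41.9% of them, and depth is unknown, and no counting interval can be given. 0 of 12 housekeeping genes were at 0.

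Genes averaging 1 FPKM or more over the 4 libraries were compared on log2(FPKM + 1), so fold changes of low genes are understated. The test was limma 3.58.1 (R 4.3.3) fitted to 2 groups with its trend option, two-sided, Benjamini-Hochberg adjustment over all 12504 genes at 0.05 and 2 residual degrees of freedom. It was also run on simulated data, and neither the settings nor the outcome of that run are reported here. The labels give no separate origin of replicates, so p-values measure only how far these libraries spread, and that spread may be technical. The 30 genes and the other lists were chosen with earlier results of these data known. Every library's value is given for genes whose groups do not overlap, those with a log2 difference of at least 0.5 in size, SREBF1, SREBF2 and INSIG1. Other genes given in this way, FDPS, ACAT2, FDFT1, EBP, NSDHL, TM7SF2, FADS1, FADS2, ELOVL5 and FEN1, were added after their values were seen. From each related list up to 4 genes with the smallest p are named, and some genes of these lists are not reported here. Lengths are of the longest coding transcript in GENCODE release 29, matched by symbol (88.7% of tested genes outside the small RNA classes, and all 30). Promoters came from RefSeq on GRCh38.p14, a later build than the authors', and the 50 bases after each start were left out.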

Additional observations from a re-analysis of the deposited data

How the results depend on the processing

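None of the 30 genes passed in any of the 14 alternatives run, with the smallest adjusted p at 0.153 or above (limma), and 4 or 5 of them at an unadjusted p under 0.05 in the 8 alternatives on pseudocount, filter, scaling, moderation and small RNA genes. Over all tested genes 793 of 12504 were at that unadjusted p in the main fit, and 669 to 1311 in those 8 alternatives. With the replicate block it was 0 of the 30, beside 601 of all 12504 tested genes. With the crossed pairing it was 8 of the 30, beside 2617 of all 12504, so the count rose for tested genes in general. Over all genes 11 were called, against 1 without a filter, 1 without small RNA genes, 65 with the replicate block and 51 to 61 in fits without 1 library, where the lone library is assumed to vary like the other group. Same-numbered libraries deviated in opposite ways (r = -0.76 across 12112 genes), so the numbers do not pair them, and the replicate block called 0 of the 30. The crossed pairing, added after seeing the data, called 7 genes and 0 of the 30. Without 1 library each, the median over the 30 genes ran from 0.074 to 0.54 and over sterol enzymes from -0.16 to 0.59. In these fits 1 of the groups holds 1 library, which makes separation easier. Genes with both DOX values above numbered 13 to 22, where 23.5 to 33.9% of all tested genes were above. Those with both below numbered 0 to 8. The share of all tested genes below is not reported here for these fits, so that count has no background beside it. The log2 difference took both signs in 16 genes, from -0.32 to 0.81 for ACAT2, -0.26 to 0.60 for MVK, -0.51 to 0.21 for PMVK, -0.061 to 1.21 for IDI1, -0.55 to 0.65 for FDPS, -0.37 to 0.30 for FDFT1, -0.048 to 0.62 for TM7SF2, -0.45 to 0.34 for NSDHL, -0.47 to 0.078 for HSD17B7, -0.28 to 0.95 for EBP, -0.094 to 0.53 for SREBF1, -0.090 to 0.43 for STARD4, -0.073 to 0.078 for ACSS2, -0.059 to 0.56 for FADS1, -0.99 to 0.90 for FADS2 and -0.051 to 0.051 for ELOVL5. Upper quartile scaling put FDFT1 at 0.019, FADS2 at 0.0074 and ELOVL5 at 0.053, and median ratio scaling put ELOVL5 at 0.030, against main values just below 0. No scaling moved the median of all genes by over 0.05. The cause of these changes was not tested. FPKM without depth limit the precision of low genes such as GPAM and INSIG1.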
